A study of Mus musculus with 2 samples.

Results

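In the bladder DNase-seq data, 230 gene starts combined a CpG-rich sequence with no called peak. They were drawn from 20807 autosomal protein-coding genes of GENCODE M21, the mouse gene annotation. A start counted as CpG-rich when the sequence 500 bp on either side of the gene's 5' end had a CpG observed/expected ratio of 0.6 or more and a GC content of 55% or more. That held for 8233 genes. Of these, 230 (2.79%) had no peak within 1 kb of the 5' end in either animal and are called closed here. The members were thus chosen by their sequence and by the absence of peaks in these same libraries, so that absence is a description and is given without a test. Each animal gave 1 DNase-seq library from the urinary bladder of a female B6CASTF1/J mouse, a first-generation hybrid of a laboratory and a wild-derived strain, aged 36 days and otherwise untreated. The labels give the samples the same donor record but different biosamples and animal numbers, and on that ground they are treated as 2 animals. They form the only group, with no control tissue, so no p-value was computed, and values are given animal by animal to show the replicate error. In a whole-tissue library, a promoter open in few cells cannot be told apart from a promoter open weakly in many.

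DNase-seq cuts chromatin lightly with deoxyribonuclease I and counts the cut ends, so DNA that is free of nucleosomes yields peaks. In mammals most CpG dinucleotides are methylated and have been lost over evolution, and stretches that kept them, called CpG islands, cover many gene starts. A CpG-rich start is usually free of methylation and accessible in many tissues. Known special cases are germline genes whose islands are methylated in body cells, and developmental regulators whose islands are bound by Polycomb complexes where the gene is silent.

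Sequences of 6 closed starts show the material that the rule selected. Each runs 5' to 3' on the strand of its gene over the 200 bases before the 5' end, from GRCm38.p6, which is mm10, with every CpG in capitals. Tdrd5, a Tudor-domain gene of the germline piRNA pathway, lies at chr1:156303665-156303864 on the minus strand, and its stretch overlaps an exon of an annotated noncoding RNA on the other strand. Hmx1, a homeobox gene of the eye and ear, lies at chr5:35388908-35389107 on the plus strand. Hcn2, a pacemaker channel gene, lies at chr10:79716434-79716633 on the plus strand. Zfp541, a zinc finger gene of meiotic cells, lies at chr7:16061614-16061813 on the plus strand. Cabp7, a calcium-binding protein gene, lies at chr11:4746779-4746978 on the minus strand, and Gabbr2, which encodes a subunit of the GABA-B receptor, lies at chr4:46991874-46992073 on the minus strand. Apart from Tdrd5, these stretches touch no annotated exon.
Tdrd5: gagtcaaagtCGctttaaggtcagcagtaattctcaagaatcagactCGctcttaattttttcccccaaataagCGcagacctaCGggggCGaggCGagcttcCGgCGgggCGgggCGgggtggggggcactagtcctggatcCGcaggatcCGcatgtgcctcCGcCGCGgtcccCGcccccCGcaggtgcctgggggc
Hmx1: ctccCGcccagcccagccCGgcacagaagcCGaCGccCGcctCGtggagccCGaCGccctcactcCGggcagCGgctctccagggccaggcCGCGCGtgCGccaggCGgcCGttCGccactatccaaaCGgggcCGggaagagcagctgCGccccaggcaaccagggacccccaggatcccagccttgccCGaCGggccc
Hcn2: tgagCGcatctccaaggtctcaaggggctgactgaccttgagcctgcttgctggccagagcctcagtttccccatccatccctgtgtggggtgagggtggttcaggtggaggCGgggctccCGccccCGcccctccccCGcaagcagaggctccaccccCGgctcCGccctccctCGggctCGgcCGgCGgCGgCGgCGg
Zfp541: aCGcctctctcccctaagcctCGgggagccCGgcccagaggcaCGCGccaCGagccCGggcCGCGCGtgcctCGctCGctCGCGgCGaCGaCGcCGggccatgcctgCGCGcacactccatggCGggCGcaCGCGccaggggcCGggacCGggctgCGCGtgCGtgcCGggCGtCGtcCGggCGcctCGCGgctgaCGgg
Cabp7: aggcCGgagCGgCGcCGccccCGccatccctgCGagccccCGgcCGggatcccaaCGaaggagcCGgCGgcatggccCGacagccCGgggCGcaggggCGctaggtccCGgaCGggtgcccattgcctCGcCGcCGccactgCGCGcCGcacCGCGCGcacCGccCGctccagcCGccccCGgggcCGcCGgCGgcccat
Gabbr2: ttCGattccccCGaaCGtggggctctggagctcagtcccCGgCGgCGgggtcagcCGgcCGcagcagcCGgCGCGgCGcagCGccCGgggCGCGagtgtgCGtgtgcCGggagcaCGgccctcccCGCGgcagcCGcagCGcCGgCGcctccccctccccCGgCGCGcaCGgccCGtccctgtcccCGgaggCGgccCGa
The 6 stretches hold 17, 22, 14, 37, 33 and 33 CpG in the order printed. In Tdrd5 and Hcn2 the capitals crowd toward the 3' end of the stretch, near the gene start.

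Outside the 230 closed starts, 7861 CpG-rich promoters had a peak in both animals and 142 (1.72%) in only 1 of them, 83 in replicate 1 and 59 in replicate 2. By contrast, 6592 of the 12574 other autosomal promoters (52.4%) had no peak in either animal. Counted in 1 animal alone, closed CpG-rich starts numbered 289 in replicate 1 and 313 in replicate 2. The larger peak lists of the 2 animals held 117773 and 102671 peaks. Bladder marker genes carried peaks at their starts, most of which are not CpG-rich. A peak was present in both animals at 19 of 22 urothelial genes, 14 of 15 smooth muscle genes and 12 of 13 fibroblast genes. The counts were 7 of 12 endothelial, 6 of 9 nerve or glia and 3 of 12 leukocyte genes. Among all starts that are not CpG-rich, 52.4% had no peak in either animal, and differences between the lists were not tested. Defining markers with a peak in both animals included the urothelial Upk2 (heights of 3.62 and 2.79 in replicates 1 and 2), the smooth muscle Myh11 (2.82 and 1.48) and the fibroblast Col1a1 (5.13 and 4.20). None of the 10 CpG-rich starts of the urothelial, smooth muscle, fibroblast and endothelial lists was closed in both animals, although the endothelial Sox18 lacked a peak in replicate 2. At the share of 2.79% over all CpG-rich starts, a count of 0 among 10 is not a result about these lists.

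Closed starts were only modestly poorer in CpG than open ones, and the overlap was wide. They held between 45 and 153 CpG within those 500 bp either side, with a median of 73, against a median of 77 for the starts with a peak in both animals. Their median CpG observed/expected ratio was 0.725 compared with 0.800, while their GC content was 63.8% compared with 62.5%. The CpG island around the closed starts, measured as the merged windows of 200 bp that pass the same ratio and 50% GC, had a median length of 990 bp compared with 1120 bp. Islands of 2 kb or more were found at 20 closed starts (8.70%) and at 447 open ones (5.69%). The longest at a closed start was 3180 bp, at Zic2, a zinc finger transcription factor gene of the developing forebrain. Closed genes were shorter, with a median of 16.8 kb compared with 28.5 kb, and had a median of 2 annotated transcripts compared with 5. Another protein-coding start lay within 1 kb at 12 closed starts (5.22%) but at 1753 open ones (22.3%). These shares describe promoters that were sorted by the readout, and promoters are not replicates of a condition.

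**Figure D1:**
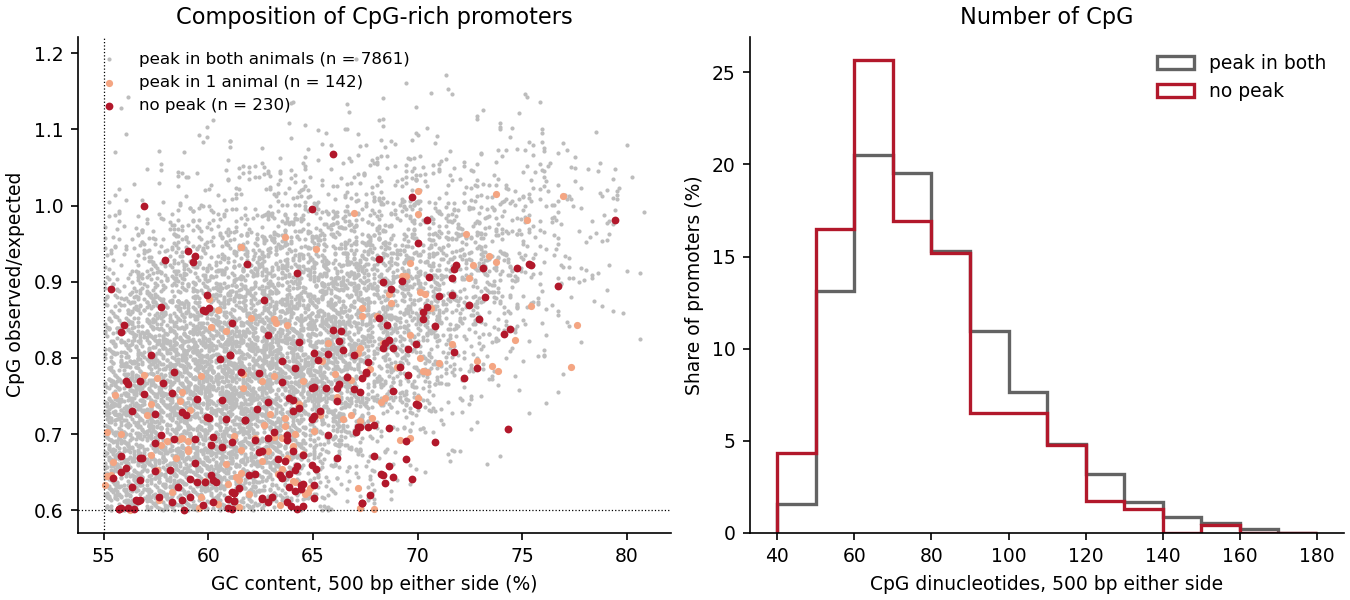
Left, CpG observed/expected (y axis) against GC content in percent (x axis) over 500 bp either side of each CpG-rich start, with red points for the 230 closed starts, orange for the 142 with a peak in 1 animal and grey for the 7861 with a peak in both, and dotted lines at the thresholds of the rule. Right, the share of promoters in percent by number of CpG for closed (red) and open (grey) starts. The closed starts spread over the whole cloud and reach 153 CpG, with medians of 73 and 77 for closed and open starts.

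The 10 most CpG-dense closed starts included receptor, ligand and ion channel genes. Cabp7 led with 153 CpG, and its nearest peak was 3583 bp away in replicate 1 and 3603 bp in replicate 2. Gabbr2, Grid1 (a delta-type glutamate receptor) and Nrg3 (a neuregulin, a ligand of the ErbB4 receptor) held 131 each. Their nearest peaks stood at 1068 and 1110 bp for Gabbr2, at 3143 and 9068 bp for Grid1, and at 59713 bp in both animals for Nrg3. Gabbr2 therefore lay just beyond the 1 kb of the rule, while Nrg3 stood in a wide stretch without peaks. Hs3st4, which encodes a heparan sulfate sulfotransferase, had 128 CpG with gaps of 50509 and 28989 bp. Arhgef7, a guanine nucleotide exchange factor gene, had 123 with gaps of 21621 and 26817 bp. Zic2 had 122 with 11224 and 58726 bp. Zdbf2, an imprinted gene, had 121 with 37225 and 24421 bp. Hmx1 had 118 CpG with gaps of 2873 and 2853 bp, and Kcnj12, an inward rectifier potassium channel gene, had 118 with 37344 bp in both animals. Nkx1-1 also had 118 and was left out of these 10 only by alphabetical order.

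The nearest peak to a closed start lay at a median of 6715 bp in replicate 1 and 7306 bp in replicate 2, and the gaps ranged from 1002 to 512199 bp and from 1002 to 389250 bp. In 138 of the 230 cases the gap differed by 100 bp or less between the animals. Gaps of 1 to 2 kb were measured at 43 starts in replicate 1 and 40 in replicate 2, and gaps over 50 kb at 22 and 25. The nearest peak was within 2 kb in both animals at 36 starts and beyond 10 kb in both at 78. Among starts without a peak in either animal, the median gap was larger where the promoter was not CpG-rich (15092 and 16570 bp). At 39 closed genes (17.0%) no peak was found in either animal over the whole gene and 10 kb on either side, compared with 493 of the open genes (6.27%) once their own promoter was set aside. Leaving out starts with a near-identical copy elsewhere in the genome, the counts were 25 of 197 (12.7%) and 486 of 7821 (6.21%). Closed genes were also shorter, so less sequence was searched around them. Peak density over the gene and 10 kb on either side, without the promoter, had a median of 0.538 and 0.457 peaks per 10 kb for closed genes compared with 0.702 and 0.582 for open ones. Of the 18 starts with gaps beyond 50 kb in both animals, 13 had a near-identical copy elsewhere in the genome, described further on. The other 5 were Nrg3, Apba2, Csmd2, Gpr12 and Prr23a3, singled out after their values were seen.

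**Figure D2:**
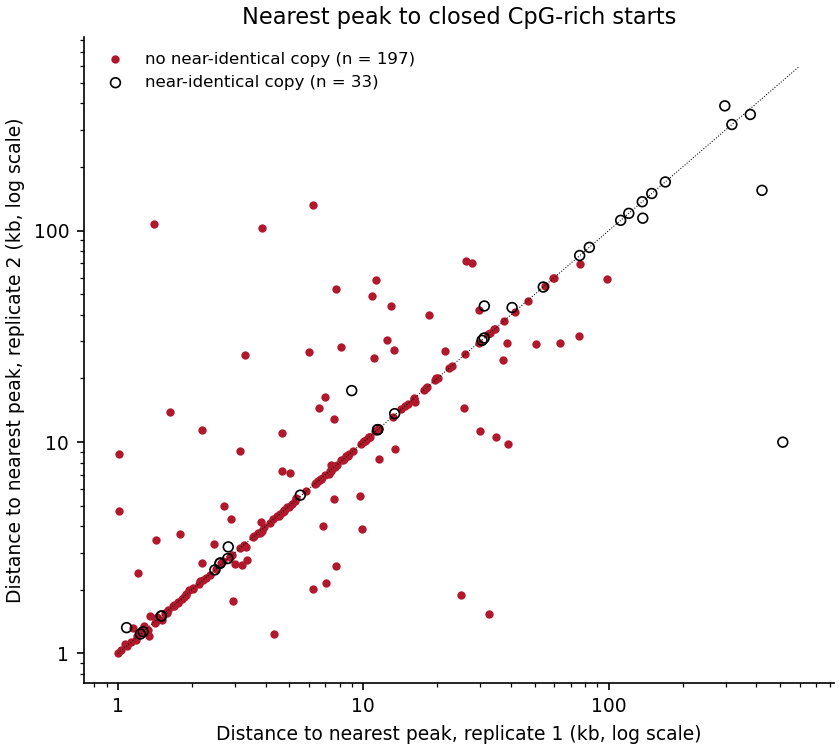
Distance from each of the 230 closed starts to the nearest peak in replicate 1 (x axis) and replicate 2 (y axis), both in kb on log scales, with the dotted line marking equal distances and open circles the 33 starts with a near-identical copy. Most points lie on the line, 138 of them within 100 bp, and 13 of the 18 starts beyond 50 kb in both animals are copies.

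Few closed starts held other deposited calls, and signal below the thresholds of those calls was not examined. The authors also listed single bases whose cutting exceeded its surroundings at a false discovery rate of at most 0.05, and this list reached within 1 kb of 16 closed starts in replicate 1 (6.96%) and 14 in replicate 2 (6.09%), and of 5 in both (2.17%). Every start open in both animals had such bases, so this measure is tied to the rule and is given as a description. Of the 142 starts with a peak in 1 animal, 31 (21.8%) had such bases in both. Vstm2l, which encodes an immunoglobulin-domain protein, had the most, 62 and 64 bases, and its nearest peak began 1033 bp from the start in both animals. Rbfox1, a neuronal splicing regulator, had 41 and 26 bases with a peak 3255 bp away. Pcdh15, a protocadherin of the hair cell tip link, had 31 and 33 with a peak 1002 bp away. Barhl2, a homeobox gene of the retina and spinal cord, had 18 and 6, and Vwa2 had 5 and 14. Gabbr2 (41 and 0 bases) and Gm5089 (38 and 0) were covered in replicate 1 alone. At a false discovery rate up to 0.001, Vstm2l was the single closed start with any base, in each animal. None of the 230 held a footprint, the authors' call of a short protected stretch, within 1 kb, while 99.4% and 99.2% of open starts did. Footprints come from the same libraries as the peaks, so this contrast is also tied to the rule and is a description. At the 142 starts with a peak in 1 animal, the peak was low. Its height, a signal in the authors' own scale, had a median of 0.553 (83 starts, replicate 1) and 0.433 (59 starts, replicate 2), while starts open in both animals had 6.68 and 4.52.

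The closed starts were sorted by 23 gene lists, which hold 110 of them, and 120 belong to no list. Germline genes had the largest closed share of any list with 14 or more CpG-rich starts. Of 30 germline genes with a CpG-rich start, 12 (40%) were closed, 1 had a peak in 1 animal and 17 in both. The count without a peak was 12 in replicate 1 and 13 in replicate 2. The background of 2.79% over all CpG-rich starts stands beside these shares, but the rule used that contrast and no test was made. Closed genes of small RNA silencing of transposons were Tdrd5, Mael, Mov10l1, Fkbp6 and Ddx4, the last of which encodes the germ cell helicase Vasa. Genes of the synaptonemal complex, which joins paired chromosomes in meiosis, were Sycp1, Sycp2 and Tex12, and those of meiotic breaks and crossovers were Mei1 and Rnf212. The remaining members were D1Pas1, a testis helicase gene, and Slc25a31, a mitochondrial carrier gene of sperm. Tdrd5 had 86 CpG, with its nearest peak 18538 bp away in replicate 1 and 40064 bp in replicate 2. Ddx4 had 73 CpG with gaps of 8106 and 8186 bp, D1Pas1 66 CpG with 7745 and 52701 bp, and Sycp1 65 CpG with 34016 and 34201 bp. Gaps of the 12 members ran from 2708 bp (Sycp2) to 34016 bp (Sycp1) in replicate 1, and from 3715 bp (Slc25a31) to 52701 bp (D1Pas1) in replicate 2. No germline member had a near-identical copy, beside 33 of all 230 closed starts (14.3%). Slc25a31 was the only one with listed bases, 7 in replicate 1, beside 25 of all 230 (10.9%) in 1 or 2 animals. At these shares a group of 12 would hold few, so neither count is a result about germline genes.

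Transcription factors of neural and sensory development held 20 closed starts, more than any other list except the predicted gene models (31). Of 66 such genes with a CpG-rich start, 20 (30.3%) were closed, 20 had a peak in 1 animal and 26 in both, so a peak was missing in 28 cases in replicate 1 and in 32 in replicate 2. Starts with a peak in 1 animal were thus as many as closed ones in this list, compared with 1 to 12 in the germline list. Homeobox genes made up most of the closed members (Hmx1, Barhl2, Lhx2, Lhx5, Lhx6, Phox2a, Gsx2, Tlx1, Dlx6, Uncx, Otx2, Six3 and Six6, and the POU genes Pou3f2, Pou3f3 and Pou4f3). The others were the basic helix-loop-helix genes Neurog1 and Ptf1a, the ETS gene Fev of serotonergic neurons and Sox1. Barhl2 had 116 CpG and an island of 2650 bp, with gaps of 3863 bp in replicate 1 and 102455 bp in replicate 2. Neurog1, a proneural gene of sensory neurons, had 89 CpG with gaps of 25683 and 14473 bp. Lhx2, a LIM homeobox gene of the forebrain, had 86 CpG with 11620 and 8313 bp. Pou3f2 had gaps of 1409 and 107406 bp, so a peak close to the start was present in replicate 1 alone.

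Among 67 transcription factors of mesoderm and endoderm with a CpG-rich start, 11 (16.4%) were closed, 6 had a peak in 1 animal and 50 in both. The count without a peak was 14 in each animal. They were the gut factors Cdx1, Cdx2, Barx1 and Foxl1, the heart and pharynx factors Irx4, Tbx1 and Pax9, the kidney factor Pax2, Foxn4, Tlx1 (also counted above) and T (brachyury). Barx1, a homeobox gene of the stomach, had 113 CpG with gaps of 7058 and 2163 bp, and Cdx1, a caudal homeobox gene of the intestine, had 103 with 3722 bp in both animals. Irx4 had 89 CpG with gaps of 29822 and 11262 bp. Pax2 had 71 CpG in an island of 2290 bp with gaps of 63385 and 29565 bp. In the Hox family, 3 of 20 CpG-rich starts were closed (15%, beside 2.79% over all CpG-rich starts), with 4 lacking a peak in each animal taken alone. Another 2, Hoxd13 and Hoxc11, had a peak in 1 animal, and 15 had a peak in both. The 3 closed starts were all in the HoxC cluster, which is too few for a result about a cluster. Hoxc12 had gaps of 6604 and 14522 bp, Hoxc8 of 2907 bp in both animals and Hoxc9 of 9739 and 5534 bp. Hoxc8 and Hoxc9 are neighbours among CpG-rich starts, 14.2 kb apart.

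Genes of neurons were the next group. Of 62 receptors, channels, transporters and synaptic proteins with a CpG-rich start, 13 (21%) were closed, 4 had a peak in 1 animal and 45 in both, with 14 lacking a peak in replicate 1 and 16 in replicate 2. They included the ion channels Hcn2 and Kcnk9, the glutamate receptor subunits Grin2a, Grin2c and Grin3b, the nicotinic subunit Chrna3, the serotonin and dopamine receptors Htr6 and Drd5, and the RNA-binding proteins Elavl3 and Rbfox1. The vesicle transporters of acetylcholine (Slc18a3) and of GABA and glycine (Slc32a1) were closed as well. Peaks stood nearer to these starts than to germline starts, at medians of 2949 and 2851 bp compared with 7695.5 and 7919 bp. Hcn2 had 114 CpG and a peak 1447 bp away in both animals, Kcnk9 had 94 and 3141 bp in both, and Slc18a3 had 89 with 2871 and 2851 bp. With a window of 2 kb, 8 of the 13 and all 12 germline starts were still closed, beside 183 of all 230 closed starts. The difference between the groups was not tested. Over potassium channel genes as a family, 5 of 32 CpG-rich starts were closed (15.6%), among them Kcnj12, Kcnk9, Kcnk15 and Kcnj6.

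**Figure D3:**
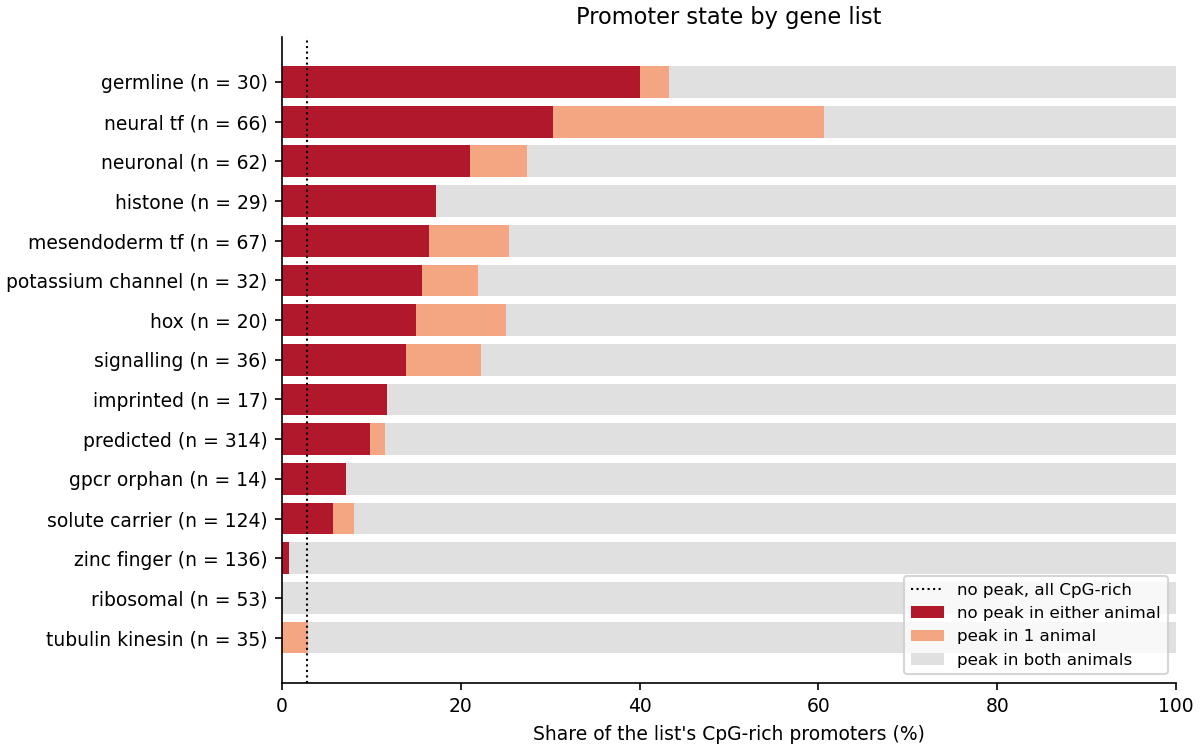
Share of each list's CpG-rich promoters (x axis, percent) that had no peak in either animal (red), a peak in 1 animal (orange) or a peak in both (grey), for the 15 lists with 14 or more such promoters, with the number of promoters beside each name. The dotted line marks 2.79%, the share over all CpG-rich promoters, and germline genes lead with 40% while ribosomal protein genes have 0, which is near that line for a list of 53.

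Signalling genes had 5 of 36 CpG-rich starts closed (13.9%), with 7 lacking a peak in replicate 1 and 6 in replicate 2. They were the hedgehog ligand Ihh, the Wnt ligands Wnt3 and Wnt6, the BMP family ligand Gdf7 and the secreted Wnt antagonist Sfrp5. Ihh had 101 CpG in an island of 2480 bp, with a peak 1692 bp away in replicate 1 and 1671 bp in replicate 2. Gdf7 had gaps of 4687 and 4667 bp, Wnt6 of 1329 and 1289 bp, and Sfrp5 of 2204 and 11452 bp. Ihh and Fev are adjacent among CpG-rich starts, 66.3 kb apart. Of 17 imprinted genes with a CpG-rich start, 2 were closed, Zdbf2 and Nnat. Nnat, a gene of neurons and endocrine cells, had peaks 1183 and 1163 bp away. Imprinted genes are expressed from 1 parental copy, and the peak lists used here do not separate the copies.

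Other gene families were counted over their CpG-rich starts only. Over all autosomal starts, no peak was found in either animal at 7 of 79 ribosomal protein and 7 of 61 tubulin or kinesin genes. The counts were 71 of 415 zinc finger, 93 of 321 solute carrier and 22 of 60 orphan receptor genes. Among CpG-rich starts, none of 53 ribosomal protein genes and none of 35 tubulin and kinesin genes was closed in both animals. Kif5a lacked a peak in replicate 2. At a background of 2.79%, counts of 0 in lists of this size are not a result about them. Of 136 zinc finger genes of the Zfp and Zscan families with a CpG-rich start, 1 was closed, Zfp541 (0.735%). It had 94 CpG with gaps of 4434 and 4454 bp, and the other 135 had a peak in both animals. Solute carriers had 7 of 124 CpG-rich starts closed (5.65%), beside 2.79% over all CpG-rich starts, and the difference was not tested. Among the 7 were the GABA transporter gene Slc6a11 (gaps of 41341 bp in both animals) and Slc44a5 (11095 and 24940 bp). Of 14 orphan receptor genes with a CpG-rich start, Gpr12 alone was closed (7.14%), with its nearest peak 59422 bp away in both animals. A count of 1 among 14 is not a result about this list.

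Near-identical copies were frequent among closed starts. A copy was a match of 97% identity or more over at least 500 bp of that promoter sequence elsewhere on chromosomes 1 to 19, X or Y. Such copies were found at 33 of the 230 closed starts (14.3%) and at 40 of the 7861 open ones (0.509%). Put the other way, 33 of 76 starts with a copy were closed (43.4%), compared with 197 of 8157 without (2.42%). How the authors placed reads that match more than 1 site is not given in the sources used here, and the part of read placement in these closed calls was not tested. All 5 closed histone starts, of 29 CpG-rich ones, were of this kind, Hist2h3c1, Hist1h2ao, Hist1h2ap, Hist1h2bq and Hist1h2br. The last 4 lay side by side over 23.5 kb of chromosome 13, with gaps of 1236 to 1504 bp in both animals. The longest run of neighbouring closed starts held 5 genes over 324 kb of chromosome 14, from Slc25a37 to Loxl2, through Entpd4, Gm16867 and Entpd4b, and all 5 had copies. Chromosome 14 had the highest closed share of any autosome (22 of 304, 7.24%), and 14 of its 22 were copies. Without starts that have a copy, 8 of 286 were closed there (2.80%), and the other autosomes ranged from 1.66% to 4.05% with copies included. Predicted or unnamed gene models had 31 of 314 CpG-rich starts closed (9.87%). Of these 31, 19 were copies, among them 6 models on chromosome 4 with 13 further matches each. The predicted models with the most CpG were 4933428G20Rik (108), Gm21863 (106), Gm43517 (104) and BC107364 (81), of which BC107364 had a copy.

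The pair Hist1h2bq and Hist1h2br shows how alike such copies are. Hist1h2bq lies at chr13:21810198-21810297 on the minus strand and Hist1h2br at chr13:21833643-21833742 on the plus strand, and the 100 bases before each 5' end follow, with CpG in capitals.
Hist1h2bq: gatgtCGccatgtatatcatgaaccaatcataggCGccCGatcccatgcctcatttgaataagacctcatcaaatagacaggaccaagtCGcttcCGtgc
Hist1h2br: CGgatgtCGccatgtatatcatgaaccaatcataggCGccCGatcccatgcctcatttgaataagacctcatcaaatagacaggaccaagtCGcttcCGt
With a shift of 2 bases, 98 of 98 positions were identical. Such members share their sequence and are not independent of each other.

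Some genes with a closed 5' end had a peak at another annotated start. Of the 230 genes, 100 (43.5%) had at least 1 annotated transcript start more than 1 kb from the 5' end, compared with 5433 of 7861 open genes (69.1%). A peak lay within 1 kb of such an inner start in both animals at 32 closed genes, which is 32.0% of those that had one. Among open genes the share was 32.3% (1754 of 5433). The highest was at Dgkz, which encodes diacylglycerol kinase zeta, with heights of 10.3 in replicate 1 and 6.62 in replicate 2 at a start 12207 bp inside the gene. Rap1gap2, a regulator of the small GTPase Rap1, had 7.72 and 4.09 at 202890 bp, and Arhgef7 had 6.19 and 5.12 at 30596 bp. Tjp1, which encodes the tight junction scaffold ZO-1 of epithelia, had 6.21 and 4.95 at 156766 bp. R3hdm4 had 5.32 and 4.31 at 4289 bp. The medians of open CpG-rich starts were 6.68 and 4.52. Dgkz exceeded them in both animals, R3hdm4 in neither and the other 3 in 1 animal, while the lowest of the 32 genes were under 1 in both. Replicate 1 was the higher at all 5. Closed members of the regulator lists with an open inner start were Lhx2 (1.99 and 1.40), Phox2a (1.94 and 1.38), Otx2 (0.60 and 0.70) and Pax9 (3.28 and 2.75), and the germline gene Tdrd5 had 0.860 and 0.807 at 40136 bp.

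Both starts of Dgkz are shown because they share a gene but not a state. The 150 bases before the closed 5' end (chr2:91975865-91976014, minus strand) and before the open inner start (chr2:91963658-91963807, minus strand) hold 16 and 19 CpG, in capitals, and neither touches an annotated exon.
Dgkz 5' end: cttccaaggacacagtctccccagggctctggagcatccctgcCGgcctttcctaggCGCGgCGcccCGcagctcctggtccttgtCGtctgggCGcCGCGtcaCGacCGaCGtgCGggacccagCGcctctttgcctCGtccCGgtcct
Dgkz inner start: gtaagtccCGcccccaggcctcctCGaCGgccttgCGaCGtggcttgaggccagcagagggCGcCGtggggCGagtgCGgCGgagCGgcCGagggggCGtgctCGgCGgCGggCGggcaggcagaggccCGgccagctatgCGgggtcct
RefSeq starts gave a similar picture. Of the 230 genes, 174 matched a RefSeq gene by symbol, chromosome and strand. The RefSeq start was within 1 kb of the GENCODE 5' end in 154 and farther in 20. At those 20 starts a peak was present in both animals in 7 genes (Tjp1, Cysrt1, Dgkz, R3hdm4, Ahnak2, Col27a1 and Pax9), in 1 animal in 2 (Pcdh15 and Prtn3) and in neither in 11. The 11 included Zdbf2, Kcnj12, Zfp541, Pax2, Otx2, Six3, Tbx1 and Mei1. The 5' end coincided with the start of the coding sequence, so that no untranslated leader was annotated, at 15 closed genes (6.52%) and 95 open ones (1.21%). Without starts that have a copy, the counts were 7 of 197 (3.55%) and 92 of 7821 (1.18%).

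**Figure D4:**
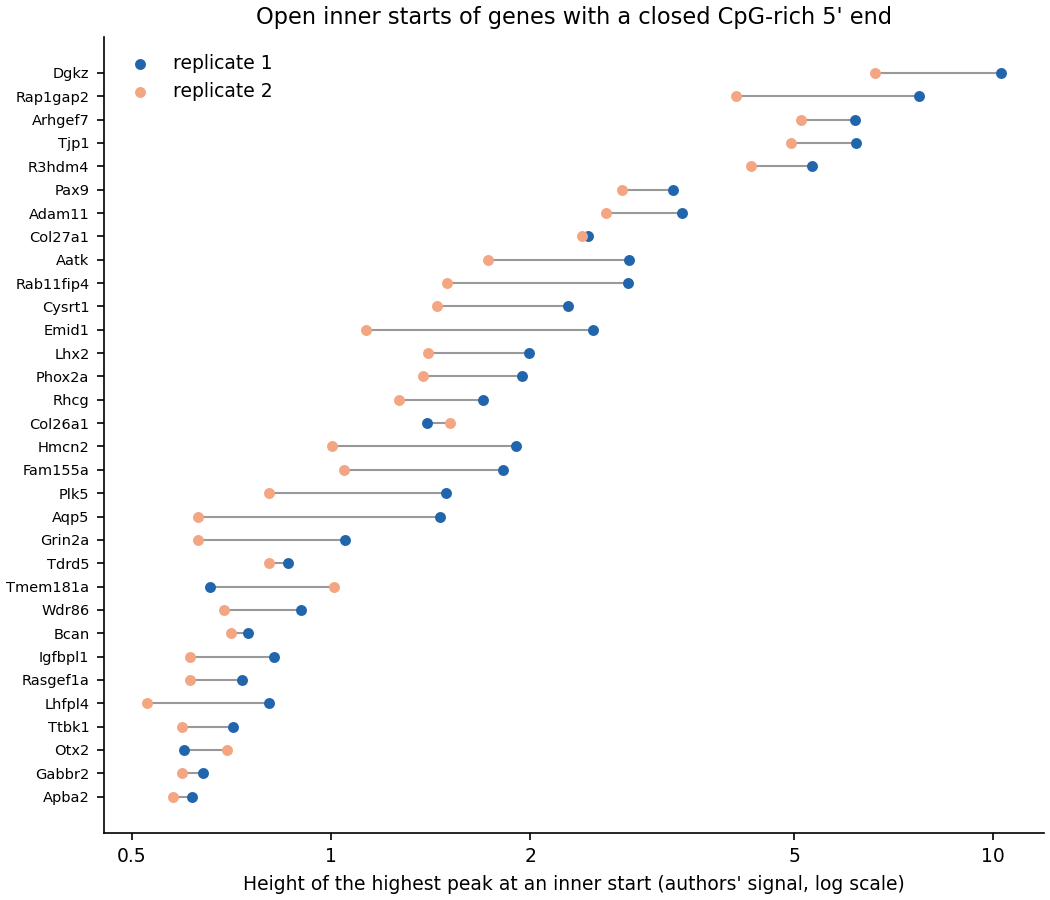
Height of the highest peak within 1 kb of an inner annotated start (x axis, the authors' signal, log scale) in replicate 1 (blue) and replicate 2 (orange) for the 32 genes with a closed CpG-rich 5' end and an open inner start in both animals. Dgkz leads with 10.3 and 6.62, and the lowest genes lie under 1 in both animals.

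Some short DNA strings known as binding sites of promoter factors were rarer at closed starts. The strings were searched on both strands over 500 bp either side of the start, and a match is not evidence of binding. The ETS string CCGGAAGT occurred at 5 closed starts (2.17%, 95% Wilson interval 0.932 to 4.99) and at 941 open ones (12%), a ratio of 0.18, against 11.6% of all CpG-rich starts. The YY1 string AAGATGGCG occurred at 3 (1.30%) and 519 (6.60%), a ratio of 0.20, and at 6.35% of all. The E-box TCACGTGA, read by factors such as MYC, MAX, MGA and USF, occurred at 1 closed start, Sycp2 (0.435%), and at 2.99% of open ones, 2.88% of all. The NRF1 string GCATGCGC was found at 10 closed starts (4.35%, 2.38 to 7.82) and 8.82% of open ones, 8.60% of all, a ratio of 0.49. The CRE TGACGTCA was found at 7 (3.04%) and 5.13%, 5.06% of all, a ratio of 0.59 with an interval that reaches past 1 (0.29 to 1.20). At least 1 of these 5 strings was present at 23 of 230 closed starts (10%), 17 of 142 starts with a peak in 1 animal (12%) and 2379 of 7861 open ones (30.3%). This joint share pools strings already given above as rarer in these data, so it adds no separate support. Intervals cover counting error only and treat promoters as independent, which copies and families are not.

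The remaining strings differed less between closed and open starts, or were rare. The GC box GGGGCGGGG, read by SP and KLF factors, was found at 92 closed starts (40%) and at 43.1% of open ones, 43.1% of all. The GC-rich E2F string TCCCGCCC, which shares 7 letters with the GC box, was found at 29.1% and 28.6% (28.5% of all), and the other E2F string TTTCCCGC at 4.35% and 6.27% (6.21% of all). The CCAAT box CCAATCA and the TATA string TATAAA each had 11.7% and 14.9%, with 14.8% and 15.0% of all. Over 250 bp before to 50 bp after the start the direction turned for TATA (5.65% closed and 4.73% open, 4.86% of all) and for TTTCCCGC (3.04% and 2.44%, 2.45% of all). The AP-1 string TGAGTCA had 6.52% and 7.76% (7.76% of all) and the TEAD string GGAATG 31.7% and 30.5% (30.6% of all), which also turned in the shorter window (7.83% and 10.3%, 10.3% of all). The CTCF string AGGGGGCGC was found at 21 closed starts (9.13%) and 6.86% of open ones, 6.97% of all. Both parts of the site of REST, a repressor of neuronal genes, were searched. TTCAGCACC had 3.04% and 1.64% (1.70% of all), and GACAGCGCC had 2.61% and 2.79% (2.77% of all), and 1.30% and 0.801% in the shorter window (0.814% of all). Among the 7 closed starts with TTCAGCACC were 4 histone starts and Tmem181a, all with copies, and without copies the ratio turned from 1.85 to 0.62. Of the rarest strings, RFX (GTTGCCATG) had 0.435% and 1.46% (1.41% of all), with 0.435% and 0.585% in the shorter window (0.571% of all), BANP (TCTCGCGAG) 1.30% and 2.63% (2.56% of all), and the ZNF143 and THAP11 string ACTACAATT was absent from closed starts, with an upper limit of 1.64%, against 0.852% of open ones and 0.814% of all.

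**Figure D5:**
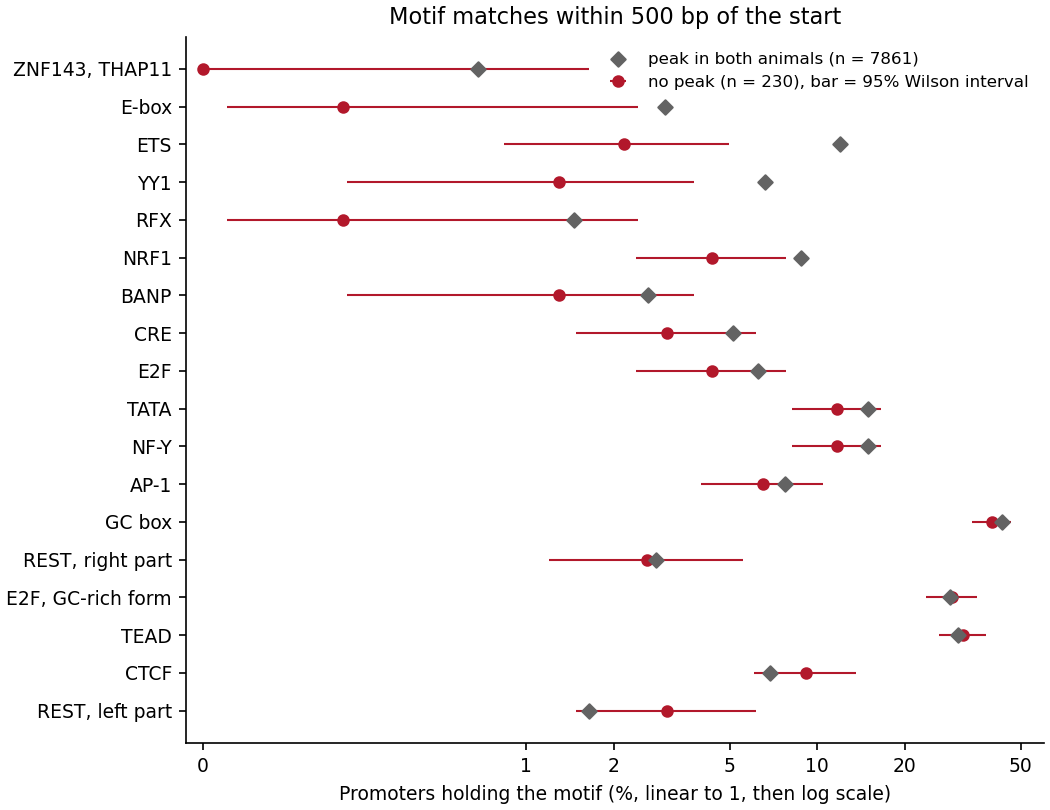
Share of promoters holding each of 18 strings within 500 bp of the start (x axis, percent, linear to 1 and on a log scale beyond) for the 230 closed starts (red circles with 95% Wilson intervals) and the 7861 starts open in both animals (grey diamonds), in order of the ratio. The ETS, YY1, E-box and NRF1 diamonds lie to the right of the red intervals, and the GC box, with 40% and 43.1%, does not.

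The strings were also counted by gene group, without a test. Of the 10 closed starts with the NRF1 string, 4 were germline genes (Slc25a31, Rnf212, Fkbp6 and Mov10l1, of 12 closed germline starts), and the others were Nnat, Gm9857, Foxn4, Ripply2, Cdx1 and Sfrp5. The string was at 4.35% of all closed and 8.60% of all CpG-rich starts. Open germline starts were not counted, so 4 of 12 is not a result about germline genes. The ETS string occurred at the germline genes Sycp2 and Fkbp6 and at Sec1, Prr23a1 and 4933416C03Rik. None of the 20 closed neural transcription factors and none of the 13 closed neuronal genes held an ETS, NRF1, YY1 or E-box string, beside 17 of all 230 closed starts (7.39%), a share at which groups of this size would hold few. The CRE was present at 3 of the 20 (Barhl2, Uncx and Dlx6). The GC box occurred at 10 of these 20 and at 7 of these 13, and at 3 of the 12 germline starts (Tdrd5, D1Pas1 and Slc25a31). Over all 230 closed starts it occurred at 92 (40%), and differences between these groups were not tested. The BANP palindrome occurred at 3 closed starts, the germline genes D1Pas1 and Sycp1 and also Prr23a1.

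Each closed start was also assigned once, in a fixed order. Copies came first with 33 starts, followed by 31 further genes with an open inner start in both animals, 29 developmental transcription factors, 15 neuronal or potassium channel genes, 11 germline genes, 5 signalling genes, 2 imprinted genes, 12 predicted models and 5 genes of other lists. The last 87 fell in no list, and these included neuronal genes such as Grid1, Nrg3, Cabp7 and Dlgap2 that the lists did not name. The thresholds of the rule passed through a continuum. Col26a1 had an observed/expected ratio of 0.6002, Col2a1 0.6018 and Mov10l1 0.6021, just inside, and Rnaseh2b (0.5997) and Gm13290 (0.5980) fell just short of it. For GC content, Hoxc12 (55.3%), Prr23a2 (55.4%) and Plac9a (55.7%) were just inside and Dusp26 (54.8%), Slitrk3 (54.8%) and Rpl10l (54.7%) just outside. By distance, Pcdh15 (1002 bp in both animals), Nags (1008 and 4713 bp) and Tbx1 (1012 and 8734 bp) were inside, and Rbmxl2 (1004 and 999 bp), Dmrt3 (12320 and 984 bp) and Galr1 (956 and 12144 bp) were outside because of the peak in 1 animal.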

How the data were processed

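DNase-seq of urinary bladder was analysed in 2 female B6CASTF1/J mice, replicates 1 and 2, with 1 library each. Per the labels, the files are on mm10. The authors deposited 2 peak lists per animal with a signal (peak height), footprints with a constant p-value type threshold of 0.01, and bases with their false discovery rate, a p-value type column, up to 0.05. For the aligner, the peak caller and the scaling of heights, the answer is not given in the sources used here, so sequencing depth is not stated either. The longer peak list, with 117773 and 102671 peaks, was the main one.

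Sequence and genes came from GRCm38.p6 and GENCODE M21, whose chromosome lengths contained all peaks. The 5' end was the outermost coordinate of the gene, and distances run from it to the nearest peak edge. Copies were sought with blastn 2.17.0. Tables were built in pandas 2.3.3 and numpy 2.4.6 under Python 3.11.15, intervals in scipy 1.17.1 and plots in matplotlib 3.10.9, and the counting steps were tested on simulated data. Members, lists and strings were chosen with earlier results of these data known. Genes were named by CpG number (up to 4 per list and the 10 highest overall), listed bases (5), inner start height (5), the longest runs and distance from the thresholds (3 on each side). Short lists were given in full, and other genes outside this rule were chosen after their values were seen. A few genes that the rule names are not reported here. Alternatives changed the window, the peak list, the composition thresholds, the start, and the animals, models and copies included.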

Additional observations from a re-analysis of the deposited data

How the results depend on the processing

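The number of closed CpG-rich starts depended most on the peak list. It was 434 (5.27% of CpG-rich starts) with the smaller list and 617 (7.49%) with the higher 50% of the peaks, and 99 (1.85%) with an observed/expected ratio of 0.75. The share was 3.22% with a window of 500 bp, 2.22% with 2 kb, 3.04% with a GC threshold of 60%, 2.27% with any annotated transcript start, 2.51% without predicted models, 2.42% without copies, and 3.51% to 3.80% with 1 animal left out (289 to 313 starts). Germline starts numbered 15 of 30 and neural transcription factors 38 of 66 with the smaller list. The share with an open inner start, 13.9%, was 14.3% at 500 bp, 12% at 2 kb, 10.4% with the smaller list, 13.1% at a ratio of 0.75, 16.1% without predicted models and 16.3% to 17.6% with 1 animal left out. The share with a base listed by false discovery rate in at least 1 animal, 10.9%, was 22.6% at 500 bp, 9.84% at 2 kb, 52.8% with the smaller list, 16.2% at a ratio of 0.75, and 9.69% to 10.5% with 1 animal left out. The starts added by the smaller list or by the 500 bp window had a larger-list peak within 1 kb in at least 1 animal. All starts with such a peak had a listed base (142 of 142 and 7861 of 7861), so these rises follow from the rule. The cause of the other changes with the smaller list was not tested.

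The ratio of closed to open shares stayed between 0.08 and 0.21 for ETS, 0.49 and 0.58 for NRF1 and 0.91 and 0.97 for the GC box over 7 alternatives each, 2 of which (copies left out, and bins of observed/expected) were chosen after seeing the data, as was leaving copies out of the count of 5' ends at coding starts. Searched from 250 bp before to 50 bp after the start, the ratio was 0.23 for CRE, 1.19 for TATA and 0.00 for the E-box. The E-box ratio was also 0.00 at an observed/expected ratio of 0.75, and the left part of the REST site had 0.62 without copies. The E-box ratios rest on a single closed start, Sycp2, whose match lay outside the shorter window and whose observed/expected ratio was 0.640. The CRE ratio in the shorter window rests on 2 closed starts. Leaving copies out removed the closed histone starts and Tmem181a from the REST count. For CRE and TATA the cause was not tested. A closed call says that no peak was listed, and since the scale of heights is not stated it cannot be set against a detection limit. No paired analysis was possible because the 2 animals form a single group.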
